A study of Mus musculus with 24 samples.

Results

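Hmox1, Nqo1, Gclc, Gclm, Gsr, Srxn1, Txnrd1, Prdx1, Mt1 and Mt2 are 10 genes for antioxidant enzymes and metal-binding proteins, chosen by name out of the 55487 genes of the deposited table. They were followed in mouse bone-marrow-derived dendritic cells, which are grown from marrow with the growth factor GM-CSF, from day 7 to day 10 of culture. The 10 of 10 genes passed the filter on low counts, as did 14535 of the 28655 genes that were counted at all. Polyadenylated RNA was sequenced with its strand kept, from both fragment ends, in 24 libraries, 3 for each of 2 genotypes on each of 4 days, and the design asked how cells with a targeted Arpc4 gene, an actin-nucleating Arp2/3 subunit, differ from controls along this course.

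WT cultures came from ARPC4 Flox/Flox CD11c-Cre -/- mice, labelled 63, 65 and 66, and KO cultures from ARPC4 Flox/Flox CD11c-Cre +/- mice, labelled 64, 67 and 68. Both genotypes thus carried the floxed alleles, and only KO mice carried the Cre recombinase, which acts in cells that express CD11c and leaves the gene intact in cells that do not yet express it. Marrow was taken from male and female animals aged 8 to 10 weeks, with no sex given for single animals. All cultures received the same GM-CSF supernatant (50 ng/mL) and 50 µM 2-mercaptoethanol, a thiol reductant, and no other agent. They were replated on days 4 and 7, and only floating cells were taken, of which more than 90% carried CD11c per the labels. With 3 mice a group, the p-values of the main fit below rest on the spread between libraries within a group, taken over all 8 groups. That fit has no term for the mouse, although the WT numbers recur on every day.

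NRF2, encoded by Nfe2l2, is a transcription factor that the adaptor KEAP1 holds for degradation in unstressed cells. When oxidants or electrophiles modify KEAP1, NRF2 enters the nucleus, pairs with small MAF proteins and binds antioxidant response elements, while BACH1, a haem-regulated repressor, competes for the same elements. Its targets make and recycle glutathione and thioredoxin and detoxify quinones and haem. Metallothioneins are small cysteine-rich proteins that bind zinc and copper and are switched on by the zinc-sensing factor MTF1 at metal response elements. Dendritic cells and macrophages use these systems to limit damage from the oxidants they make and from the iron of engulfed red cells.

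Each library carried 19952047 to 31049798 counts. The targeted gene itself was read first: Arpc4 averaged 192 ± 5.62 CPM (counts made comparable between libraries by total and TMM factor; SD, n = 3) in WT and 169 ± 13.7 in KO on day 7, and 220 ± 18.9 in WT against 181 ± 6.85 in KO on day 10. The KO libraries lay below the WT libraries on all 4 days, by 0.18 to 0.28 on the log2 scale, but the adjusted p in edgeR was 0.177 to 0.69. The counts cover the whole gene and the deleted part was not given, so this level does not measure the deletion. Ddx3y, a Y-linked gene, was read at 56.5 to 83.9 CPM in 1 library of each group and at 0.136 or less in the others. In WT this was always number 63, but in KO it was number 64 on days 7 and 9, number 68 on day 8 and number 67 on day 10. The KO numbers therefore did not follow 1 mouse from day to day, and KO libraries are named below by the number on the label. Dendritic cell markers were read in every group: 0 of 8, among them Itgax (CD11c), Flt3 and Zbtb46, were at 0, and their summed level was 2146 to 2610 CPM in WT on day 7 and 4450.5 to 6016 on day 10, with 2373 to 2855 and 4235 to 6651 in KO. The 10 macrophage markers were also read in every group, and on day 7 their sum was above that of the dendritic cell markers, at 5850.0 to 6733 CPM in WT and 5170.5 to 8127 in KO.

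Some of the promoters show 1 or both of 2 sequence features that these genes are known for, and 4 promoters are printed because they hold the contrasts between members. Of the 10 genes, 7 had a promoter in the RefSeq table (GRCm38.p6, 250 bases before to 50 after the start). Searched on both strands, TGACNNNGC, the core of the antioxidant response element, was present in 12.4% of the 32851 promoters of the same length. TGCACNC or TGCGCNC, the core of the metal response element, was present in 25.7% of them, and in 1.97% at least 3 times. Capitals mark matches to either, and in the lines shown the matches to one do not overlap those to the other. The promoters of the neighbouring metallothionein genes Mt2 (chr8:94172368-94172667) and Mt1 (chr8:94178839-94179138), both on the forward strand, hold 4 and 3 metal-element matches. Mt2 also holds the antioxidant-element match TGACTCAGC, 79 bases before the start, and the same 9 letters stand on the reverse strand 133 bases before the start of Prdx1 (chr4:116685349-116685648, forward strand). Nqo1 (chr8:107403156-107403455, reverse strand) had 0 matches to either in this window.
Mt1: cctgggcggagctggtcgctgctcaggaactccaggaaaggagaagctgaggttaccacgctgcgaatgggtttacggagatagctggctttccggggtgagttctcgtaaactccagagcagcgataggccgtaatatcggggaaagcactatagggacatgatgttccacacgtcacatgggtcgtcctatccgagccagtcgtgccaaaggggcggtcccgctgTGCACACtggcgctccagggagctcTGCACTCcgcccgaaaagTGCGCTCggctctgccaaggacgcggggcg
Mt2: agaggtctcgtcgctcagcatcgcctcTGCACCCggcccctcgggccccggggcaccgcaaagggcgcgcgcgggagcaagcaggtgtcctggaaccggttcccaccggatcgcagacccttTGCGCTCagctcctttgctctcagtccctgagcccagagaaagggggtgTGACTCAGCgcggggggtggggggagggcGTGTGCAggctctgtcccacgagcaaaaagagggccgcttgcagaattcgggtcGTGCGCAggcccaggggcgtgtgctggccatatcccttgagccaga
Prdx1: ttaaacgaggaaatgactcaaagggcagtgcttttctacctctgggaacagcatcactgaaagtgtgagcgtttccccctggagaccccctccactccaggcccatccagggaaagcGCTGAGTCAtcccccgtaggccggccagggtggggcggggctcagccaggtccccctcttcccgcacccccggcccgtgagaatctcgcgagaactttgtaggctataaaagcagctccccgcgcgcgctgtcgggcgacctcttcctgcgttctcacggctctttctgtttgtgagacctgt
Nqo1: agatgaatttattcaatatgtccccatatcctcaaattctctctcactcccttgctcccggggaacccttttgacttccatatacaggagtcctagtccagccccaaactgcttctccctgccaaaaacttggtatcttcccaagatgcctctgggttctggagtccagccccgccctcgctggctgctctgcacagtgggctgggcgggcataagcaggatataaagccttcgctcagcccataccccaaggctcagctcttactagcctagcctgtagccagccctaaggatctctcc
Among the others, Gclm held 1 antioxidant-element match and 3 metal-element matches, 1 of which overlaps it, and Srxn1 held 1 of each. Txnrd1 has 3 promoters listed and held 0 of either in the one nearest its annotated gene start. Matches in its other promoters are not reported. A match is a run of letters and not a bound site.

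All 10 genes are protein-coding, and in GENCODE M21 on GRCm38 their identifiers matched with the same version. Prdx1 (ENSMUSG00000028691.12, chromosome 4, 116685544 to 116700822, forward strand) and Hmox1 (ENSMUSG00000005413.8, chromosome 8, 75093621 to 75100589, forward strand) were the most abundant per length. Their median TPM (a level scaled by gene length as well as library total) over the 24 libraries was 1567 and 469.96. Mt1 followed at 209, Gsr at 170.0, Srxn1 at 109, Txnrd1 at 101, Mt2 at 57.9, Gclm at 35.7, Gclc at 28.3 and Nqo1 at 15.5 TPM. Each gene's range over the libraries overlapped that of its neighbour in this order. Mt2 ends 5513 bases before Mt1 begins. Genes that overlap a member on either strand had at most 0.842% of the member's count.

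**Figure D1:**
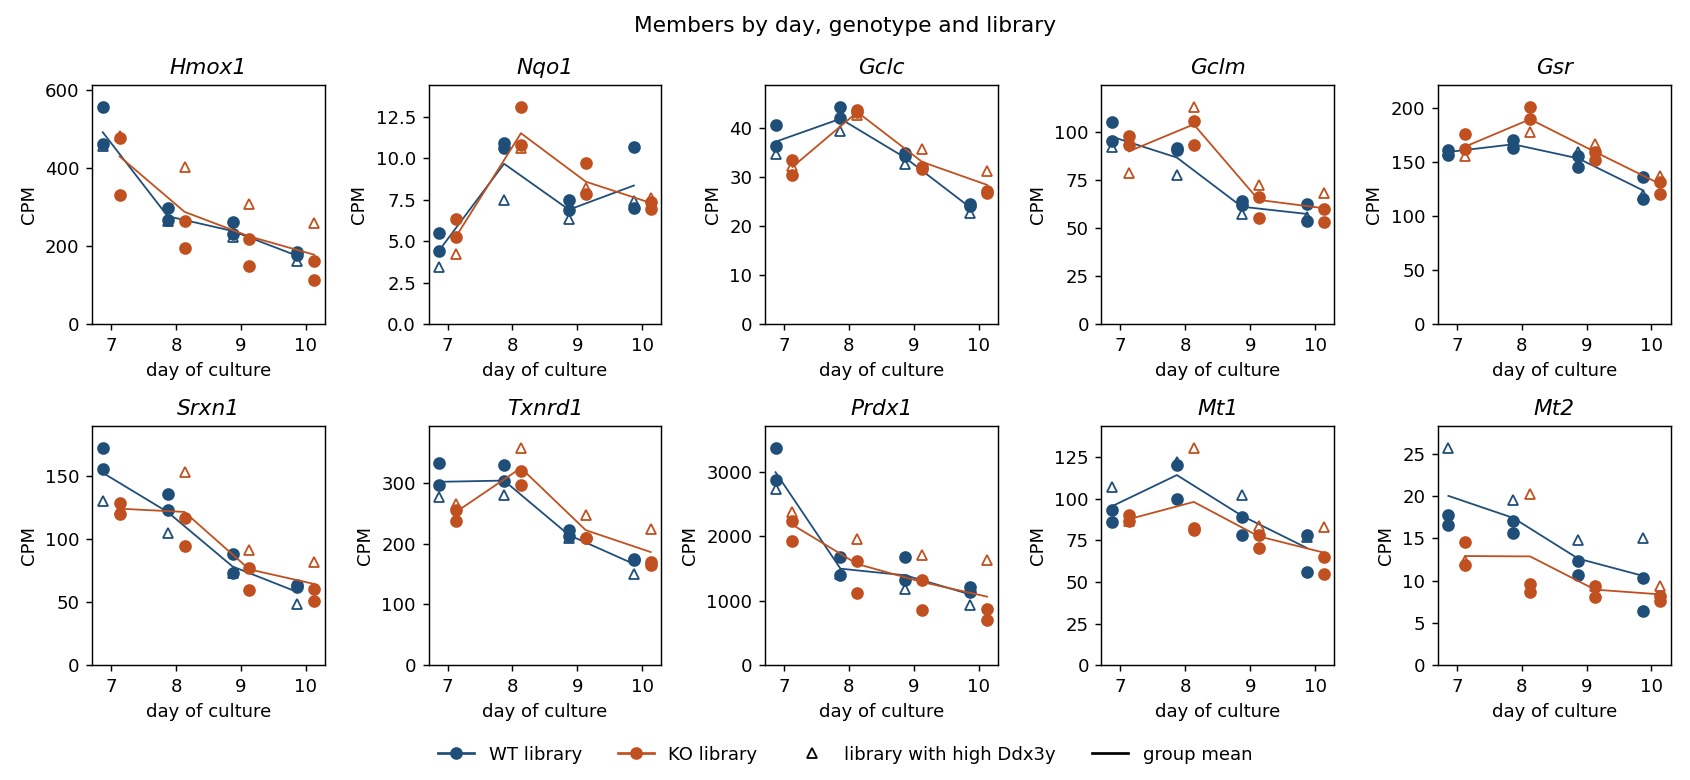
CPM of each gene in each library against the day of culture, WT in blue and KO in orange, with lines through the group means and open triangles for the library of high Ddx3y. Day-7 levels of Hmox1, Srxn1, Prdx1 and Mt2 exceed those of day 10 in both genotypes, Nqo1 is lowest on day 7, and KO and WT points overlap for most genes and days.

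Most of the 10 genes were lower on day 10 than on day 7. From day 7 to day 10 in WT, 8 of the 10 genes fell and 1, Nqo1, rose (edgeR quasi-likelihood test, Benjamini-Hochberg adjusted p under 0.05), against 37% of all genes tested that changed in either direction, 18.1% lower and 18.9% higher. In KO, 6 fell and 0 rose, against 36.8% of all genes, 17.1% lower and 19.7% higher. All 6 were among the 9 called in WT, in the same direction. The median log2 change of the 10 genes was -0.81 in WT and -0.51 in KO, beside -0.02 and 0.00 for all genes. Without the library of high Ddx3y in each group, 10 of the 10 genes were called in WT and 9 in KO, where 31.5% and 34.5% of all genes were. In WT the libraries of the 2 days did not overlap for any of the 10 genes (51.7% of all genes), and in KO for 9, all but Gclc (43.2%).

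**Figure D2:**
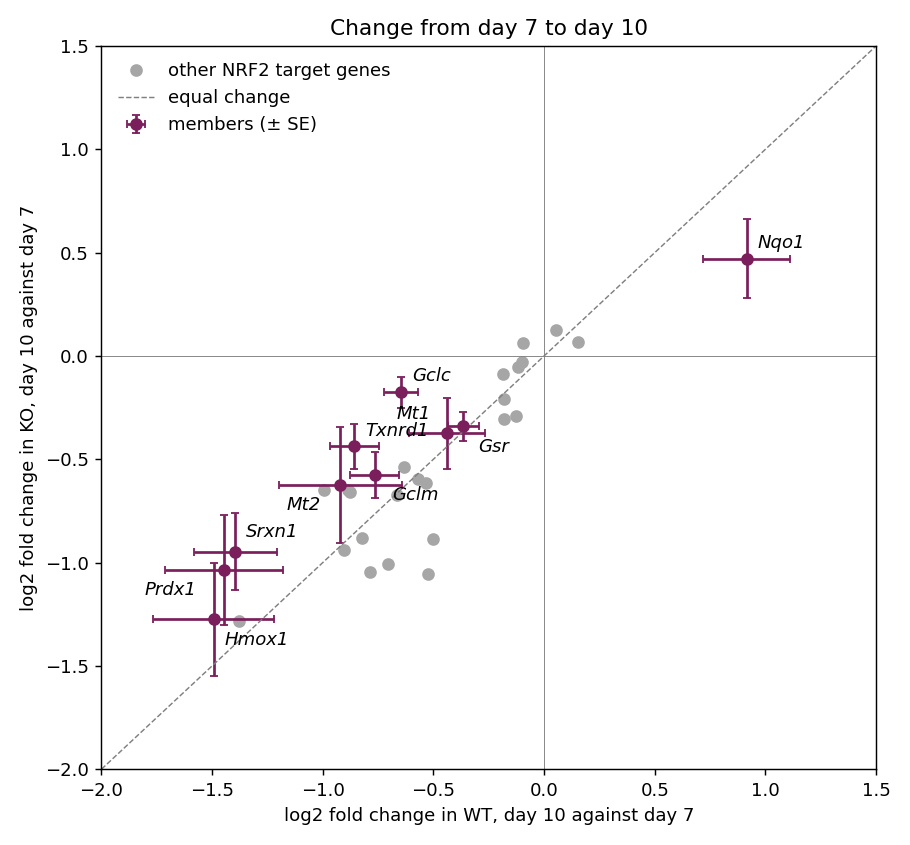
Log2 fold change from day 7 to day 10 in WT (x axis) and in KO (y axis), with standard errors, for the 10 genes (purple) and for other NRF2 target genes within the axes (grey). Of the 10 genes, 9 lie below 0 on both axes and all but Nqo1 lie above the dashed line of equal change, which marks a smaller fall in KO. With the library of high Ddx3y left out of each group, 5 of the 10 lie above it.

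Hmox1 encodes haem oxygenase 1, which opens haem and frees its iron. WT libraries 63, 65 and 66 held 457, 557 and 460.2 CPM on day 7, then 162, 177 and 184 on day 10. KO libraries 64, 67 and 68 held 481, 330.0 and 477 CPM on day 7, then 112, 258 and 162 on day 10. Every day-10 library was below every day-7 library of its genotype, and library 67 was the lowest of the KO group on day 7 and the highest on day 10. Hmox1 fell by 64.5% in WT (log2 change -1.49 ± 0.27 SE, adjusted p = 0.000249, edgeR) and by 58.7% in KO (-1.28 ± 0.27, adjusted p = 0.00108). Most of the WT fall came first: the change from day 7 to day 8 was -0.83 ± 0.27 (adjusted p = 0.0168), and later steps did not pass.

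Nqo1 (ENSMUSG00000003849.8) encodes a quinone reductase that is widely used as a readout of NRF2. It was the least abundant of the 10 per length and the only one called higher on day 10 than on day 7. WT libraries held 3.45, 4.40 and 5.48 CPM on day 7, then 7.48, 10.9 and 10.6 on day 8. In KO the day-7 values were 4.23, 6.34 and 5.27 CPM and the day-8 values 13.1, 10.8 and 10.6. No day-8 library overlapped the day-7 libraries, and the rise was near equal in the genotypes, at 1.12 ± 0.19 in WT (adjusted p = 0.000101, edgeR) and 1.13 ± 0.19 in KO (adjusted p = 8.73e-05) on the log2 scale. On day 10 it stood at 7.40, 6.98 and 10.7 CPM in WT, still above day 7 (0.91 ± 0.19, adjusted p = 0.00101). In KO it stood at 7.37, 7.62 and 6.96 CPM, and the change missed the threshold (0.47 ± 0.19, adjusted p = 0.0608). That KO change was 0.63 and called without library 67 of day 7 (adjusted p = 0.0287, edgeR). Without the library of high Ddx3y in each group it was 0.30 (adjusted p = 0.276).

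Of the glutathione enzymes, Gclc (ENSMUSG00000032350.9, chromosome 9, 77754535 to 77794485) encodes the catalytic subunit of glutamate-cysteine ligase, the rate-limiting step of glutathione synthesis. Its WT values were 34.7, 36.3 and 40.8 CPM on day 7, and 22.7, 24.6 and 24.2 on day 10. Its KO values were 32.3, 30.5 and 33.6 CPM on day 7, and 27.3, 31.3 and 26.8 on day 10. KO libraries thus lay below all WT libraries on day 7 and above all of them on day 10, and only WT values separated between the 2 days. Gclc fell by 36.1% in WT (log2 change -0.65 ± 0.08, adjusted p = 2.72e-06, edgeR), while the KO change was -0.18 ± 0.08 (adjusted p = 0.0741, 95% interval -0.33 to -0.02), which turned to 0.04 with library totals and was called without library 67 of day 10 (-0.25, adjusted p = 0.0155) and without the library of high Ddx3y in each group (-0.24, adjusted p = 0.0302). The KO level peaked on day 8 at 42.7 to 43.9 CPM, 0.43 ± 0.08 above day 7 on the log2 scale (adjusted p = 0.000108). The difference between the genotypes' changes from day 7 to day 10 was 0.47 ± 0.11 on the log2 scale (95% interval 0.24 to 0.70), with an adjusted p of 0.148 in edgeR and of 0.0311 in DESeq2. It was 0.41 without the library of high Ddx3y in each group (adjusted p = 0.415, edgeR). Across all genes edgeR called 0.0619% for that difference and DESeq2 0.27%, and edgeR called 0 of the 10 genes. Of the 10, 2 had an unadjusted p under 0.05, a threshold for which no share of all genes is given.

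Gclm encodes the modifier subunit of the same ligase, and Gsr encodes glutathione reductase, which recycles oxidised glutathione. WT values of Gclm were 92.2, 105 and 95.0 CPM on day 7, and 55.9, 53.7 and 62.3 on day 10. KO values of Gclm began at 78.4, 98.1 and 93.0 CPM on day 7, reached 106, 93.0 and 113 on day 8 and ended at 53.0, 68.1 and 59.7. From day 7 to day 10 it fell by 41.2% in WT (adjusted p = 2.63e-05, edgeR) and by 32.9% in KO (adjusted p = 0.000477). Gsr moved least of the genes that passed in both genotypes, from 156 to 162 CPM on day 7 to 116 to 137 on day 10 in WT, and from 155 to 176 to 120.3 to 137 in KO. The fall was 22.3% in WT (adjusted p = 0.000429) and 21.1% in KO (adjusted p = 0.000828). These Gsr calls rest on the scaling: with library totals in place of TMM factors the log2 changes were -0.13 (adjusted p = 0.161) and -0.12 (adjusted p = 0.177), while the median of all genes moved to 0.22 in both genotypes.

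Srxn1, Txnrd1 and Prdx1 form a line of peroxide removal: the peroxiredoxin Prdx1 reduces hydrogen peroxide, sulfiredoxin (Srxn1) restores it when it is overoxidised, and thioredoxin reductase 1 (Txnrd1) supplies reducing power through thioredoxin. All 3 fell in both genotypes. Prdx1 values in WT were 2739, 3376 and 2881 CPM on day 7, and 939, 1217 and 1144 on day 10. KO values were 2381, 1932 and 2233 CPM on day 7, and 699.7, 1628 and 868 on day 10, so that library 67 was lowest on the first day and highest on the last. The fall was 63.3% in WT (log2 change -1.45 ± 0.27, adjusted p = 0.000283, edgeR) and 51.2% in KO (-1.03 ± 0.27, adjusted p = 0.00459). In WT it came mostly between days 7 and 8 (-1.0 ± 0.27, adjusted p = 0.00463).

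Srxn1 (ENSMUSG00000032802.8) had WT values of 130.2, 173 and 156 CPM on day 7, and of 48.5, 63.8 and 62.1 on day 10. The KO values were 124, 120.2 and 129 CPM on day 7, and 50.8, 82.0 and 60.8 on day 10, with no overlap between the days in either genotype. It fell by 62.0% in WT (adjusted p = 1.14e-05, edgeR) and by 48.1% in KO (adjusted p = 0.000523). Txnrd1 went from 276, 333 and 296 CPM in WT on day 7 to 151, 175 and 174 on day 10, a fall of 44.8% (adjusted p = 6.81e-06). In KO it went from 264, 237 and 255 CPM on day 7 to 319, 297 and 357 on day 8, and then to 169.8, 223 and 165 on day 10. The KO level of Txnrd1 rose from day 7 to day 8 (0.36 ± 0.11 log2, adjusted p = 0.0108) and by day 10 had fallen by 26.2% from day 7 (adjusted p = 0.00362), whereas the WT change to day 8 was 0.01 ± 0.11 (95% interval -0.22 to 0.24).

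Single steps were called for fewer of the genes. From day 7 to day 8, 3 of the 10 genes were called in WT (Nqo1 up, Hmox1 and Prdx1 down), where 43.4% of all genes were (21.5% higher, 22% lower), and 4 in KO (Nqo1, Gclc, Gsr and Txnrd1, all up), where 42% were (21.1% higher). Without the library of high Ddx3y in each group, 6 were called in KO over this step, Nqo1, Gclc and Txnrd1 up and Hmox1, Prdx1 and Mt2 down, where 40.3% of all genes were. From day 8 to day 9, 4 fell in WT (Gclc, Gclm, Srxn1 and Txnrd1, by 0.30 to 0.63 on the log2 scale) against 5.4% of all genes (3.06% higher, 2.34% lower), and 3 in KO (Gclc, Gclm and Txnrd1, by 0.39 to 0.69) against 2.33% (1.31% higher, 1.02% lower). From day 9 to day 10, 2 fell in WT (Gclc by 0.51 and Gsr by 0.31) against 3.6% (1.18% higher, 2.42% lower), and 0 were called in KO by edgeR, against 0.0963% (0.0344% higher), with 3 at an unadjusted p under 0.05 and 1 called by DESeq2. The WT count between days 8 and 9 was 0 without library 65 or 66 of day 8 or library 63 of day 9, where 0.943%, 1.31% and 1.3% of all genes were called. The KO count between days 8 and 9 was 1 to 5 with 1 library left out, while the calls over all genes ranged from 49 to 891. Between days 9 and 10 the KO count was 3 without library 67 of day 10, where 3.17% of all genes were called. The differences between the genotypes' steps from day 7 to day 8 called 0 of the 10 genes by edgeR and by DESeq2, against 0.0275% of all genes in edgeR. Of the 10, 3 (Gclc, Gclm and Txnrd1) had an unadjusted p under 0.05. All shares in this paragraph are at the adjusted p, with none given for unadjusted counts.

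Of the metallothioneins, Mt1 (ENSMUSG00000031765.8, chromosome 8, 94179082 to 94180327) had WT values of 107, 85.9 and 93.4 CPM on day 7, and of 77.1, 55.9 and 78.4 on day 10. KO libraries held 86.3, 86.5 and 90.3 CPM on day 7, then 55.1, 82.8 and 65.1 on day 10. The days did not overlap in either genotype, but the log2 changes of -0.44 ± 0.17 in WT (adjusted p = 0.0517, edgeR) and -0.37 ± 0.17 in KO (adjusted p = 0.0948) missed the threshold. Mt1 was called in WT in 6 of 14 alternatives, with adjusted p from 0.0101 to 0.325 over the 14, among them DESeq2 (0.0439) and the mouse number as a replicate block (-0.45, adjusted p = 0.0244, edgeR). In KO it was called in 3 of 14, with adjusted p from 0.00917 to 0.421, the lowest without the library of high Ddx3y in each group.

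Mt2 (ENSMUSG00000031762.7, chromosome 8, 94172664 to 94173568) was less abundant. WT values were 25.7, 16.6 and 17.8 CPM on day 7, then 19.6, 17 and 15.7 on day 8, then 14.8, 10.7 and 12.3 on day 9, and 15, 6.39 and 10.3 on day 10. KO values were 12.4, 11.8 and 14.5 CPM on day 7, then 9.63, 8.68 and 20.3 on day 8, then 9.42, 8.09 and 9.31 on day 9, and 7.60, 9.34 and 8.20 on day 10. KO libraries were below all WT libraries on days 7 and 9, and on day 8 only library 68 of KO stood above them. From day 7 to day 10 Mt2 fell by 47.2% in WT (log2 change -0.92 ± 0.28, adjusted p = 0.0127, edgeR), a call that was lost without library 63 of day 7 (adjusted p = 0.0834) or library 65 of day 10 (adjusted p = 0.0755). The KO change was -0.62 ± 0.28 (adjusted p = 0.0869, 95% interval -1.22 to -0.03). In edgeR it was called without the library of high Ddx3y in each group (-0.74, adjusted p = 0.00826) and with only the libraries compared (adjusted p = 0.019). Log2 CPM of Xist as a covariate (0.0175) and the mouse number as a block (0.0355), which carries no pairing in KO, also gave a call. The other alternatives did not.

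**Figure D3:**
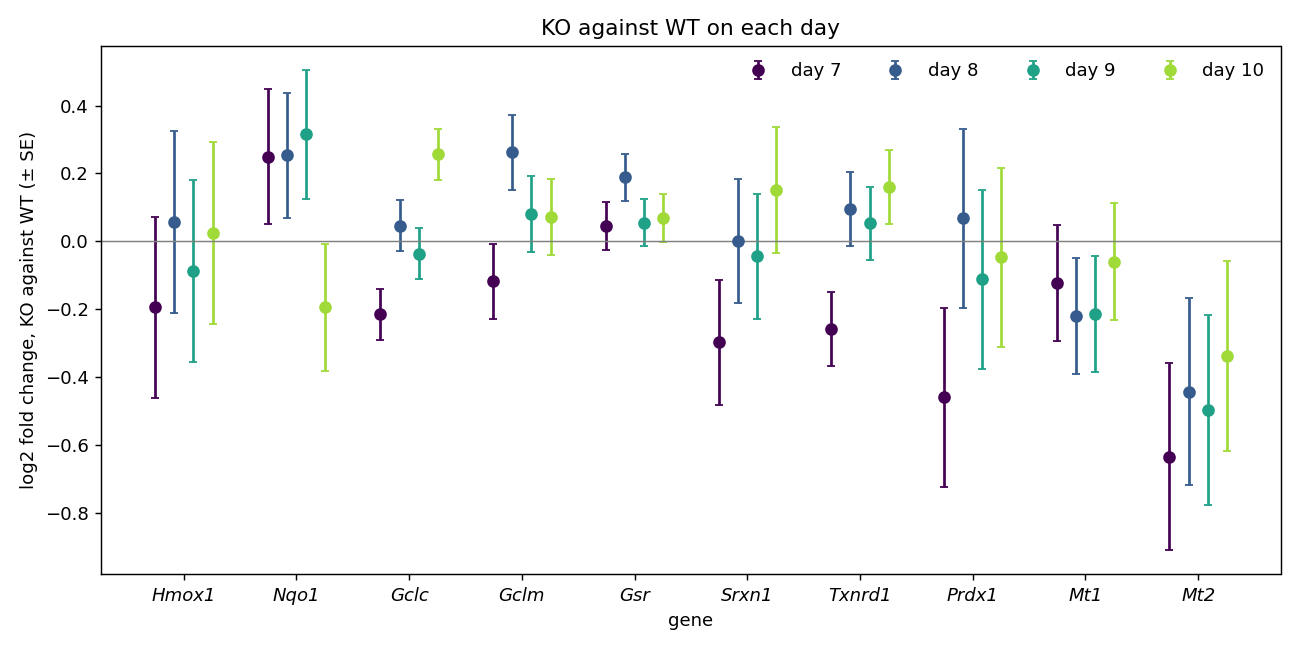
Log2 fold change of KO against WT for each of the 10 genes on days 7, 8, 9 and 10, with standard errors. Mt1 and Mt2 are below 0 on all 4 days, Gclc moves from -0.21 on day 7 to 0.26 on day 10, and no point passed the adjusted threshold.

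Between the genotypes, none of the 10 genes passed on any day. edgeR and DESeq2 each called 0 of 10 on days 7, 8, 9 and 10, where edgeR called 1.45%, 0.00688%, 0.00688% and 0.0138% of all genes. Of the 10, 3, 2, 0 and 1 had an unadjusted p under 0.05. The shares are at the adjusted p, and none is given for the unadjusted counts. On day 7 the log2 difference was negative for 8 of the 10, with a median of -0.20 beside -0.01 for all genes. For 5 genes (Gclc, Srxn1, Txnrd1, Prdx1 and Mt2) all KO libraries were below all WT libraries, against 26.2% of all genes without overlap in either direction. Txnrd1 differed by -0.26 ± 0.11 (adjusted p = 0.248), Gclc by -0.21 ± 0.08 (adjusted p = 0.163), Prdx1 by -0.46 ± 0.26 (adjusted p = 0.409) and Mt2 by -0.63 ± 0.28 (adjusted p = 0.266, 95% interval -1.22 to -0.05). With the library of high Ddx3y left out of each group, Txnrd1 was the only one of the 10 called on day 7 (-0.35, adjusted p = 0.0432), where 2.22% of all genes were. Mt2 then differed by -0.38 (adjusted p = 0.287).

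On day 8 the log2 difference was positive for 8 of the 10, with a median of 0.06. Without the library of high Ddx3y in each group it was positive for 4, with a median of -0.09, and on days 9 and 10 for 2 each, in place of 4 and 6. With all libraries, on day 8 KO was above WT without overlap for Gclm (0.26 ± 0.11, adjusted p = 0.772) and Gsr (0.19 ± 0.07, adjusted p = 0.713), where 9.39% of all genes had no overlap. On day 9 Nqo1 was above and Mt2 below without overlap (14.1% of all genes), and on day 10 only Gclc, above by 0.26 ± 0.08 (adjusted p = 0.347, 10.4%). With all libraries, Mt1 and Mt2 had a negative difference on all 4 days, from -0.06 to -0.22 for Mt1 and from -0.34 to -0.63 for Mt2. Without the library of high Ddx3y in each group, the differences ran from -0.02 on day 7 to -0.42 on day 8 for Mt1. For Mt2 they then ran from -0.08 on day 10 to -0.83 on day 8. Hmox1, Srxn1, Txnrd1 and Prdx1 were negative on all 4 days as well once the library of high Ddx3y was left out of each group. On day 10 this sign turned for Mt1 in 3 of 14 alternatives, each with 1 library left out, to at most 0.08, and Mt2 reached 0.00 without library 63 of WT. On days 7, 8 and 9 it turned in 0 of 14. For Hmox1 the 95% intervals reached from -0.76 to 0.37 on day 7 and from -0.54 to 0.59 on day 10, so that changes of that size could not be told from 0. A p that misses the threshold does not show that the levels were equal.

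How far the libraries of 1 group lay apart differed by gene. For Hmox1 the coefficient of variation within a group of 3 was 6.19% to 11.6% in WT and 20.0% to 41.6% in KO, and it was higher in KO on all 4 days. Prdx1 varied by 10.2% to 18% in WT and by 10.5% to 46.5% in KO, higher on 3 days. Gclm was also more variable in KO on all 4 days, at 9.77% to 13.5% against 5.48% to 8.86%. Srxn1 and Txnrd1 were more variable in KO on 3 days, Gclc, Gsr and Mt1 on 2, and Nqo1 and Mt2 on 1. The median over the 10 genes was 11.2% in WT and 8.44% in KO on day 7, 9.53% and 18.2% on day 8, 8.59% and 10.7% on day 9, and 11% and 14.9% on day 10. The median over all genes was 7.62% to 10.7% in WT and 10.0% to 13.5% in KO.

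From day 8 on, the highest KO values of these genes were mostly in the library of high Ddx3y. It was the highest of its KO group for 3 of the 10 genes on day 7 and for 7, 9 and 10 on days 8, 9 and 10, where all genes gave 35.1%, 41%, 37.9% and 36%. Over 10 genes and 4 days, that library was the highest of its KO group in 29 of 40 cases and the lowest in 7, against 37.5% and 38.5% for all genes. In WT it was the highest in 8 of 40 and the lowest in 25, against 33.8% and 34.3%. In KO it was highest on all 4 days for Hmox1, Txnrd1 and Prdx1, and in WT on no day for these 3. In WT it was highest for Mt2 on 4 days and for Mt1 on 3. On day 9 in KO, library 64, of high Ddx3y, had 306 CPM of Hmox1 and 1705 of Prdx1, and library 67 had 149 and 852. Arpc4 in those KO libraries was at 155, 223, 199 and 184 CPM on days 7 to 10, below the 2 others of the group on days 7, 8 and 9 and between them on day 10. Whether sex, a different mouse or Arpc4 itself has a part in these values was not tested.

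**Figure D4:**
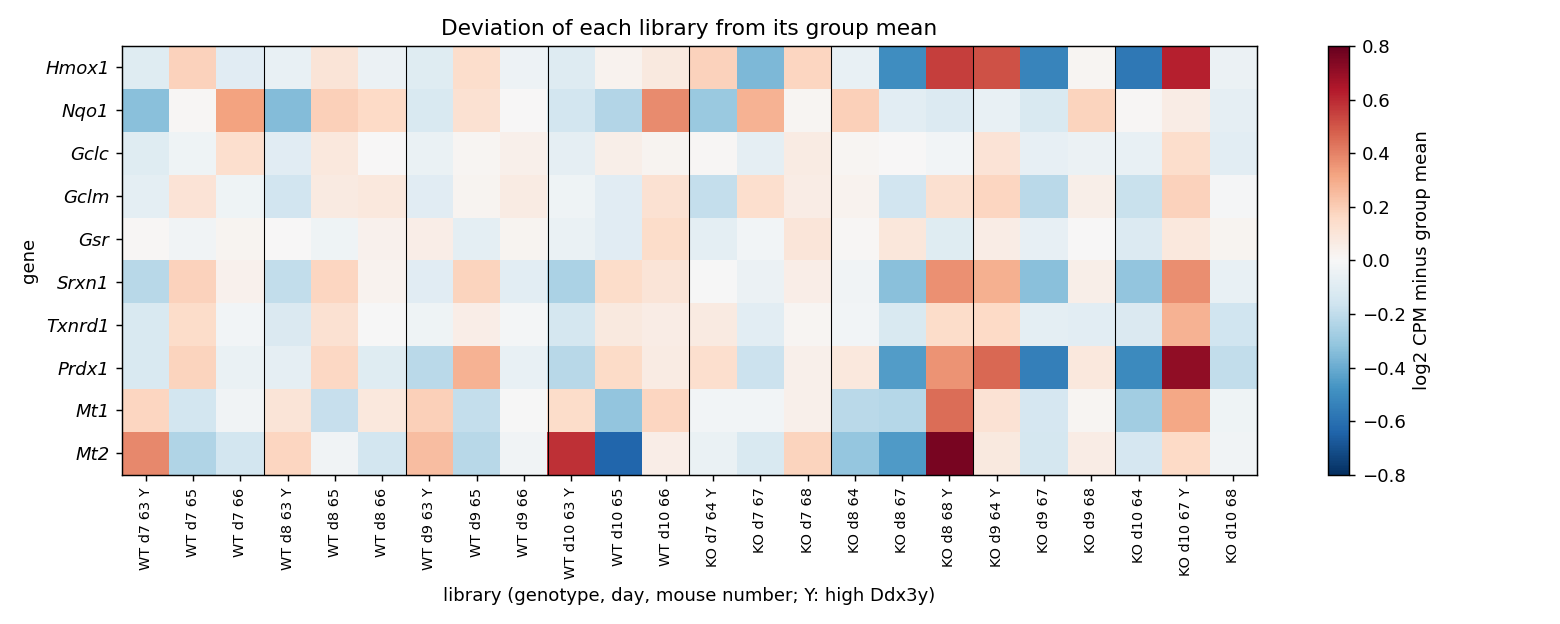
Deviation of each gene in each library (columns, by genotype, day and mouse number, with Y for the library of high Ddx3y) from the mean of its group, in log2 CPM. Hmox1, Srxn1 and Prdx1 share red or blue in the KO columns other than library 64 of days 7 and 8, where their signs differ. In WT the library of high Ddx3y is blue for these genes and red for Mt1 and Mt2 on all 4 days.

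Taking each library's deviation from its group mean over the 24 libraries, Hmox1 and Prdx1 moved together with r = 0.94, Srxn1 and Prdx1 with r = 0.93, Hmox1 and Srxn1 with r = 0.89 and Mt1 and Mt2 with r = 0.85. The points share libraries, depth and mice and are a description. Between Mt1 and each of Prdx1, Srxn1, Txnrd1 and Hmox1 the sign differed between the genotypes. Mt1 and Prdx1 had r = 0.80 over the 12 KO libraries and r = -0.82 over the 12 WT libraries, and Mt1 and Srxn1 had r = 0.90 and r = -0.75. With Txnrd1 the values were 0.78 and -0.71, and with Hmox1 0.86 and -0.65. Mt2 also differed in sign with the same genes. For Mt1 the sign was the same in both genotypes with Gsr (0.08 and 0.71) and with Nqo1 (-0.10 and -0.12). In WT, number 63 was above its group mean for Mt1 and below it for Prdx1 and Srxn1 on all 4 days. The difference between the genotypes' correlations was not tested. Over the log2 CPM of all 24 libraries, where the shared course over days also counts, the gene most like Hmox1 was Cd68, a lysosomal glycoprotein gene of macrophages (r = 0.98, rho = 0.97). For Prdx1 it was Rab7, a GTPase gene of late endosomes (r = 0.98), for Srxn1 Ninj1 (r = 0.97), for Txnrd1 Card19 (r = 0.96) and for Gclc Slc3a2, the heavy chain of amino acid transporters that include the cystine carrier (r = 0.94). For Nqo1 it was Tgfbi (r = 0.92), for Gclm D1Ertd622e (r = 0.92), for Gsr Ctla2a (r = 0.88), for Mt1 Slc38a7 (r = 0.87) and for Mt2 Ift20 (r = 0.83).

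Genes of the wider NRF2 pathway were counted in the same way. Among 12 regulators and partners of NRF2, 8 fell and 0 rose from day 7 to day 10 in WT, and 4 fell and 0 rose in KO, all 4 among the 8, where 18.1% and 17.1% of all genes were lower. Nfe2l2, which encodes NRF2, averaged 436 ± 10.5 CPM on day 7 and 285 ± 18.1 on day 10 in WT, and 426 ± 6.92 and 283 ± 10.3 in KO. It fell by 34.6% in WT (adjusted p = 1.27e-06, edgeR) and by 33.6% in KO (adjusted p = 1.8e-06). Sqstm1, whose protein p62 binds KEAP1, fell by 42.7% in WT and by 41.2% in KO. Mafg, a small MAF partner, fell by 28.3% in WT, and the repressor gene Bach1 fell by 30.4% in KO. The median log2 change of the 12 was -0.24 in WT and -0.11 in KO.

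Among 25 tested of 26 other NRF2 targets, 17 fell and 0 rose in WT and 17 fell and 0 rose in KO, 16 of them shared. Of all genes, 18.1% were lower and 18.9% higher in WT, and 17.1% lower and 19.7% higher in KO. Blvrb, for biliverdin reductase B, which acts after haem oxygenase, fell by 61.6% in WT and by 58.9% in KO (adjusted p = 1.48e-05 and 3.5e-05, edgeR). Slc7a11, the cystine carrier that feeds glutathione synthesis, fell by 49.8% in WT, as did the ferritin heavy chain gene Fth1 by 46.6%. In KO, Mgst1, a microsomal glutathione transferase, fell by 51.9% and Idh1, which makes NADPH in the cytosol, by 51.6%. The median log2 change of the 25 was -0.57 in WT and -0.65 in KO.

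In the enzymes of the same chemistry that were not listed as NRF2 targets, both directions were called. Of 18 peroxidases, dismutases and thiol enzymes, 1 rose and 5 fell in WT and 2 rose and 6 fell in KO, with medians of 0.01 and -0.14, where 37% and 36.8% of all genes changed. Glrx, for glutaredoxin, rose by 82.9% in WT and by 54.5% in KO, and Prdx5, a mitochondrial peroxiredoxin, fell by 24.8% and by 42.9%. Gpx4, the lipid peroxide peroxidase, fell by 20.9% in WT and by 30.0% in KO, and Gss, for glutathione synthetase, by 21.1% in WT. In KO, Sesn2, a stress-induced sestrin, rose by 48.4% and Msra, a methionine sulfoxide reductase, fell by 24.4%.

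Of 17 genes of zinc and metal handling, 1 rose and 4 fell in WT and 4 rose and 6 fell in KO, against the same 37% and 36.8% of all genes. Tfrc, the transferrin receptor, rose to 2.39-fold in WT and to 2.05-fold in KO (adjusted p = 0.000328 and 0.00169, edgeR). Slc40a1, the iron exporter ferroportin, fell by 63.7% in WT and by 67.2% in KO. Slc30a1, a zinc exporter that MTF1 also controls, fell by 36.0% and by 36.5%, and the iron carrier gene Slc11a2 by 35.6% and by 31.6%. In KO the transporter genes Slc39a14 and Slc30a4 rose by 66.6% and by 65.8%.

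Between the genotypes, 1 gene of these 4 lists passed on any day. Maff, a small MAF partner, averaged 12 ± 0.63 CPM in WT and 8.59 ± 0.68 in KO on day 7, and was lower in KO by 0.48 ± 0.11 on the log2 scale (adjusted p = 0.0354, edgeR, where 0.619% of all genes were lower). Abcc1, which exports glutathione conjugates, had the smallest p of the other NRF2 targets. It was above WT without overlap on all 4 days, by 0.26, 0.36, 0.40 and 0.32 on the log2 scale, with adjusted p of 0.0656, 0.224, 0.0663 and 0.147. For Txnrd3 on day 10 the difference was -0.44 (adjusted p = 0.377), and for Slc30a9 on day 7 it was -0.20 (adjusted p = 0.0913).

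Markers of other cell types moved along the same days. The 10 macrophage markers summed to 5850.0 to 6733 CPM in WT on day 7 and to 2413 to 2499 on day 10, and to 5170.5 to 8127 and 2341 to 3083 in KO, with 0 of 10 at 0 in any group. Among them 6 fell in WT and 7 in KO, with 0 higher, where 18.1% and 17.1% of all genes fell, and Apoe, for apolipoprotein E, fell by 89.5% and by 90.9%. C1qc fell by 49.0% in WT and was called lower in KO too, and C1qb fell by 50.8% in KO. Of the dendritic cell markers, 4 of 8 rose in each genotype and 0 fell, where 18.9% of all genes rose in WT and 19.7% in KO, among them Cd209a to 18.1-fold in WT and 6.73-fold in KO, Zbtb46 to 4.11-fold and 4.93-fold and H2-Ab1 to 3.23-fold and 2.61-fold. In these bulk samples fewer cells of a type and less RNA per cell cannot be told apart, and the part of cell makeup in the decline of the 10 genes was not tested.

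Granulocyte markers (9) summed to 1666 to 3295 CPM on day 7 and to 4011 to 5887 on day 10 in WT, and to 2242 to 5817 and 2845 to 4766 in KO, with 0 of 9 at 0. In WT, 5 rose and 1 fell (Camp to 2.38-fold, S100a8 to 2.23-fold and S100a9 to 1.97-fold, with Retnlg down by 70.7%), and in KO 0 rose and 1 fell (Retnlg, by 73.5%), beside the same shares of all genes. Mast cell and basophil markers (5, 0 at 0) summed to 40.1 to 218 CPM over all groups, and Prss34 fell by 67.0% in KO. Lymphocyte markers summed to at most 9.78 CPM and erythroid markers to at most 1.03, with 1 to 3 of the 5 erythroid markers at 0 in each group. Between the genotypes, 1 marker passed: Fcgr1, a macrophage Fc receptor gene, at 92.5 ± 7.55 CPM in WT and 128 ± 6.20 in KO on day 7 (0.46 ± 0.10 log2 higher, adjusted p = 0.0204, edgeR, where 0.832% of all genes were higher). The marker with the smallest p in the other lists was Ccr7 for dendritic cells on day 8 (2.33-fold, adjusted p = 0.579), Camp for granulocytes on day 7 (1.84-fold) and Mcpt8 for basophils on day 7 (2.59-fold). For lymphocytes it was Cd3g on day 8, at 0 to 0.105 CPM in WT and 0.0423 to 1.44 in KO (adjusted p = 0.787), and for erythroid cells Hba-a1 on day 7, at 0.0428 to 0.482 CPM in WT and 0.559 to 0.729 in KO (adjusted p = 0.335). Their part in the day-7 values of the 10 genes was not tested.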

How the data were processed

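Polyadenylated RNA was measured in 24 libraries, and the groups follow the labels for genotype and day. The authors deposited a table of whole-number raw counts per gene and a table of TPM values, whose sum is equal in all libraries and which rest on gene lengths not given in the sources used here. The submitters' processing notes name FastQC 0.11.9, STAR 2.6.1, DESeq2 1.22.2 and the mm10 build with no role given. The counting tool, its strand setting and the annotation are not given in the sources used here, and the 2 library kits named in the labels' protocols are not tied to libraries. Of 55487 identifiers, 55094 matched GENCODE M21 (GRCm38) with the same version, and positions are from there, counted from 1. Members, gene lists and tests were chosen with earlier results of these data known, and no list is used as independent support.

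The deposited counts were fitted with edgeR 4.0.16 in R 4.3.3: filterByExpr over the 8 groups, TMM factors, a quasi-likelihood fit of all 24 libraries with 1 coefficient a group and 16 residual degrees of freedom, and Benjamini-Hochberg adjustment over the 14535 genes tested (threshold 0.05, both directions). Standard errors were derived from fold changes and F statistics, and intervals are 95%. TPM was used only to compare levels between genes. Deviations and likeness are on log2 CPM (prior count 2). Totals were 19952047 to 28651870 counts in WT and 24030705 to 31049798 in KO, and the Poisson counting error of 1 library at its group's mean count was at most 9.87% for Nqo1, 6.09% for Mt2 and 3.92% for the other members. It exceeded the observed coefficient of variation in 1 of 8 groups for Nqo1 and in 2 for Gclc. Reads without molecular identifiers are not independent molecules. Within-group library pairs differed beyond sampling noise, with a chi-square of 7.1 to 125 per degree of freedom over 24 pairs. The scripts were tested on simulated data.

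Named beside the 10 genes were, from each list, up to 3 genes a direction with the largest change among those called with an average log2 CPM above 1, in KO against WT on each day, in day 10 against day 7 and in the interactions. Where a list had no call between genotypes, the gene of smallest p over the 4 days was named, and for each member the gene of highest Pearson r. Of the genes called by the first part of this rule, 1 is not reported here. The values of Abcc1 on days other than 9 were added after they were seen. The mouse numbers recur on every day. Over 10768 autosomal genes the deviations of same-numbered libraries had a mean correlation of 0.29 in WT (0.003 to 0.50) and of 0.03 in KO (-0.78 to 0.79), with a KO mean of 0.37 among days 7 to 9 and -0.32 for pairs with day 10. Since the library of high Ddx3y changed number between days in KO, the numbers were read as pairing in WT only, and KO values under the block below carry no pairing. Alternatives were DESeq2 (1.42.0) size factors or its Wald test, library totals, no low-count filter, only the libraries compared, log2 CPM of Xist as a covariate, the mouse number as a block (limma 3.58.1 voom for KO against WT) and each library left out in turn. Leaving out the library of high Ddx3y in each group was added after seeing the data.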

Additional observations from a re-analysis of the deposited data

Results flagged for a closer look

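The course of Gclc from day 7 to day 10 differed between the genotypes by the test of the difference itself in DESeq2 but not in edgeR. The KO change exceeded the WT change by 0.47 on the log2 scale (SE 0.11), from an edgeR log2 change of -0.65 in WT and of -0.18 in KO. The adjusted p over all genes was 0.148 in edgeR and 0.0311 in DESeq2. That DESeq2 call was the only 1 in 20 alternatives, where the adjusted p reached up to 0.619. Without the library of high Ddx3y in each group the difference was 0.41 (adjusted p = 0.415, edgeR). By number, the day-10 level was 0.653, 0.678 and 0.593 of the day-7 level in WT libraries 63, 65 and 66, and 0.846, 1.02 and 0.798 in KO libraries 64, 67 and 68, although the KO numbers do not follow 1 mouse.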

How the results depend on the processing

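Values of each gene were compared over the alternatives for KO against WT, for day 10 against day 7 and for the interaction between these days. Among them, 0 called values of the 10 genes changed sign while called, 4 calls were lost and 21 were gained. Of 830 values that were not called, 54 changed sign. Calls lost or gained in the single steps are not in this tally. Counts of members called kept within 1.5 times of the main count in 183 of 208 alternatives. Library totals moved the median log2 change of all genes from day 7 to day 10 to 0.221 in WT and 0.225 in KO, ended the calls of Gsr in both, added Nqo1 in KO (0.68, adjusted p = 0.00738) and raised the WT count from day 7 to day 8 from 3 to 6 (46.4% of all genes called). With only the libraries compared, that count was 5 (56.2%), the WT count from day 9 to day 10 was 5 (from 2; 6.26%) and the KO count from day 8 to day 9 was 0 (from 3; 0%). Without a filter the WT count from day 9 to day 10 was 1 (1.4%). With log2 CPM of Xist as a covariate, Mt1 in WT (adjusted p = 0.0101, edgeR) and Nqo1, Mt1 and Mt2 in KO (0.0255, 0.0181 and 0.0175) were called from day 7 to day 10, where 38.4% and 38.2% of all genes were. DESeq2 gave 5 in KO from day 8 to day 9 (6.34%), 1 in KO from day 9 to day 10 (from 0; 1.65%) and 1 for the difference between genotypes from day 7 to day 10 (from 0, Gclc; 0.27%). Without the library of high Ddx3y in each group, chosen after seeing the data, 1 member was called in KO against WT on day 7 (from 0), 5 in KO from day 8 to day 9 and 1 in WT from day 9 to day 10, where 2.22%, 5.92% and 0.785% of all genes were. The cause of these shifts was not tested.

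With each library left out in turn, KO against WT gave 0 members on every day, while calls over all genes ranged from 24 to 291 on day 7 and from 1 to 70 on the later days. From day 7 to day 10 the count was 8 to 9 in WT (4367 to 4790 of all genes) and 6 to 8 in KO (3977 to 5643). From day 7 to day 8 it was 2 to 4 (5347 to 5754) and 3 to 4 (4980 to 6322). From day 8 to day 9 it was 0 to 3 (140 to 459) and 1 to 5 (49 to 891), and from day 9 to day 10 it was 1 to 2 (67 to 533) and 0 to 3 (0 to 470). With the mouse number as a replicate block, 10 members were called in WT and 8 in KO from day 7 to day 10, where 37.3% and 36.5% of all genes were, adding Mt1 in WT (adjusted p = 0.0244, edgeR) and Nqo1 and Mt2 in KO (0.036 and 0.0355), and 0 in KO against WT. The KO numbers did not follow 1 mouse, so the KO values under this block are no paired result. The block changed no other member call between these days. Counting error exceeded the spread between libraries in 1 of 8 groups for Nqo1 and in 2 for Gclc.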
